A study of Mus musculus with 2 samples.

Results

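Mir10a, Mir10b, Mir196a-1, Mir196a-2, Mir196b and Mir615 are microRNA (miRNA) genes that lie inside the 4 mouse Hox clusters, and their reads were measured in whole limb tissue of embryonic day 10.5. They were chosen by gene symbol, with earlier results of these data known. Each of the 6 symbols matched 1 of the 1973 miRNA genes in the deposited tables, by Ensembl identifier with the version removed. The data form 1 group, untreated limb of B6NCrl embryos of both sexes pooled, with 2 small-RNA libraries that the labels call biological replicates. Replicate 1 was made from a pool of 69 embryos and replicate 2 from a pool of 51. The labels do not say how forelimbs and hindlimbs were mixed, and in bulk tissue fewer cells that make a miRNA and less of it per cell cannot be told apart. No conditions were contrasted, so the values below compare genes with each other and the 2 pools with each other.

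As background, Hox genes encode transcription factors that give cells their position along the body axis and in the limb, and they stand in each cluster in the order in which they are used along the axis. The miRNA genes among them are transcribed from the same strand as their Hox neighbours. A miRNA is cut from a hairpin precursor and guides silencing proteins to messenger RNAs, chiefly by pairing through its seed, bases 2 to 8. The miR-10 family is known from posterior neural tube and trunk. The miR-196 family is known for restraining Hox messages, among them Hoxb8, whose message it directs to be cleaved, and in the limb it has been described mainly in hindlimb. miR-615 arises from an intron of Hoxc5.

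The mature sequences show which of the 6 genes can be told apart by their reads. They were copied from RefSeq (GRCm38.p6), which held mature sequences for 6 of 6 genes, and are written 5′ to 3′ with the seed in capitals.
miR-10a-5p, from Mir10a: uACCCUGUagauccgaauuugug
miR-10b-5p, from Mir10b: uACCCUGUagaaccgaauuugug
miR-196a-5p, from Mir196a-1 and Mir196a-2: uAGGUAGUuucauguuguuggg
miR-196b-5p, from Mir196b: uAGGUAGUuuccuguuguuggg
miR-615-3p, from Mir615: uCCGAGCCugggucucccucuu
miR-615-5p, from Mir615: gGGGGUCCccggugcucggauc
Mir10a and Mir10b thus share the seed ACCCUGU, and the 3 Mir196 genes share the seed AGGUAGU. No other gene of the RefSeq miRNA table had either seed, and neither Mir615 seed was found in another gene. Counted from 1 at the 5′ end, the only difference of miR-10b-5p from miR-10a-5p was U12A, and the only difference of miR-196b-5p from miR-196a-5p was A12C. Both changes lie outside the seed. How many mismatches the alignment allowed is not stated, so the counts of such near-identical pairs carry that limit.

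The 5′ arm of Mir196a-1 is identical to that of Mir196a-2. Their hairpins, again from RefSeq, are shown with the longest run they share in capitals.
Mir196a-1: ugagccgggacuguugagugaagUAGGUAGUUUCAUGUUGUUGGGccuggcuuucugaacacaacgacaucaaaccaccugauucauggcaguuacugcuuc
Mir196a-2: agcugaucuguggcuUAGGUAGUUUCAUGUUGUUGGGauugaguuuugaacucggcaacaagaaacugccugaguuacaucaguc
The shared run is 22 bases long and is exactly miR-196a-5p. A read of that arm therefore matches both loci unless it runs past the mature ends, where the hairpins differ at once, and their 3′ arms are distinct. The longest run shared by the hairpins of Mir10a and Mir10b was 15 bases, and that of Mir196a-2 and Mir196b was 12 bases. The tables keep reads placed at several loci in a separate row, which held 2202818 reads in replicate 1 and 1831161 in replicate 2, 32.3% and 31.2% of the mapped reads. Reads of miR-196a-5p in that row are not in the counts below, so every value for Mir196a-1 and Mir196a-2 covers uniquely placed reads alone.

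The members sit at a few recurring places of the Hox clusters (GENCODE M21, GRCm38). Both Mir10 genes lie next to a group 4 Hox gene. Mir10a (chr11:96317165-96317274, plus strand) lies inside no annotated gene of its own strand, 11043 bases downstream of Hoxb5 and 992 bases upstream of Hoxb4. Genes on the opposite strand were not searched for any member. Mir10b (chr2:74726070-74726137, plus strand) is in an intron of Hoxd4 and of 1 transcript of Hoxd3. All Mir196 genes lie between the protein-coding transcript of a group 9 gene and a Hox gene of a higher group. Mir196b (chr6:52230081-52230165, minus strand) lies 1031 bases from Hoxa10 and overlaps exons of 2 of the 3 Hoxa9 transcripts that span it, neither of them protein-coding. Mir196a-1 (chr11:96265164-96265265, plus strand) also lies inside no annotated gene of its own strand, 67716 bases from Hoxb13 and 6191 bases from Hoxb9. Mir196a-2 (chr15:102973350-102973434, plus strand) is 1456 bases from Hoxc10 and 3004 bases from Hoxc9, in an intron of a long noncoding transcript of Hoxc5. Mir615 (chr15:103014910-103015001, plus strand) is in an intron of both annotated Hoxc5 transcripts. In Hoxb, 51.9 kb separate Mir196a-1 from Mir10a, and in Hoxc 41.5 kb separate Mir196a-2 from Mir615.

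**Figure D1:**
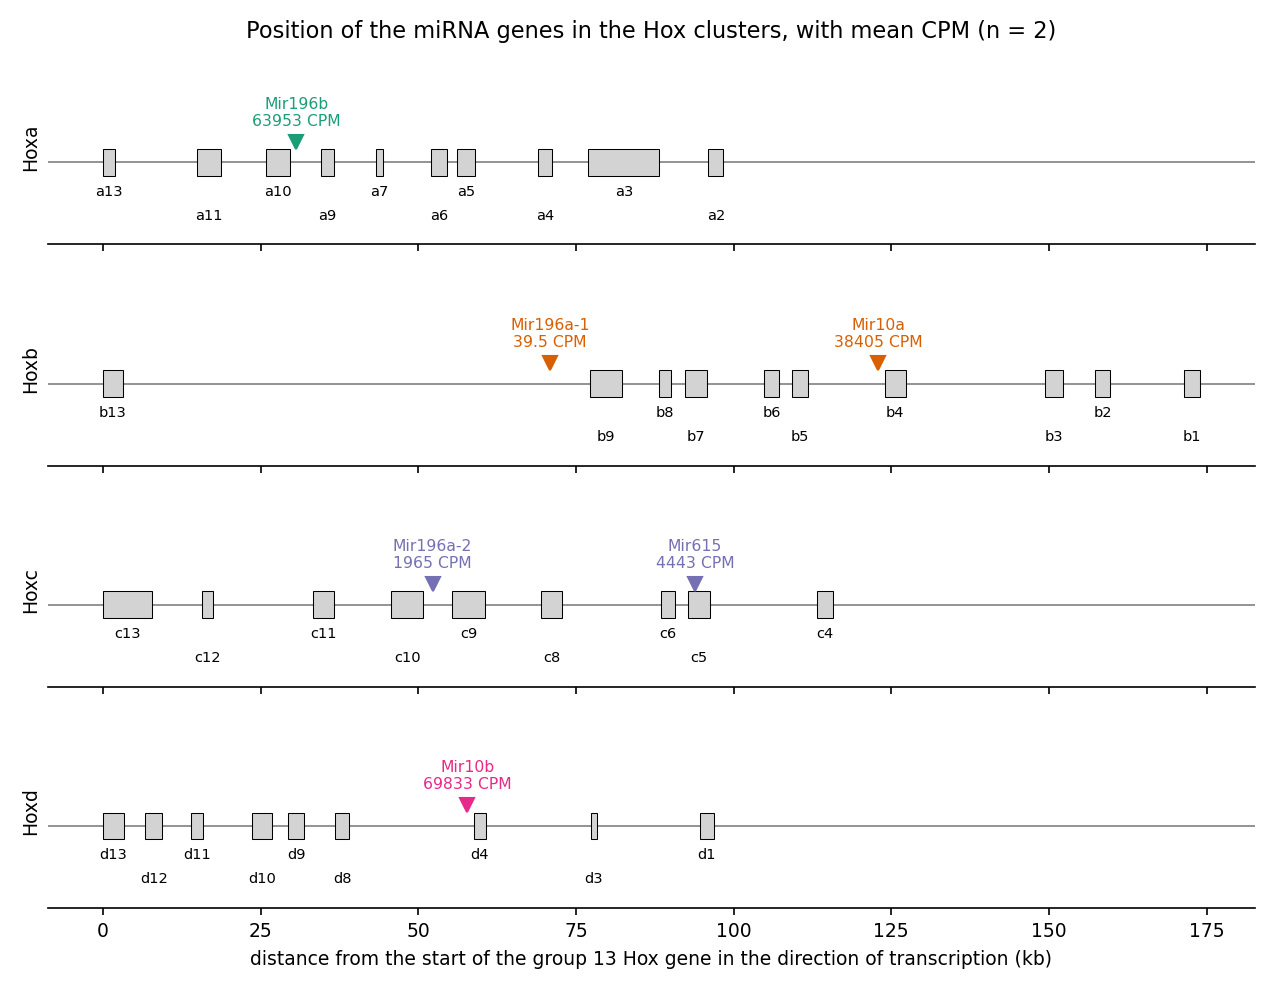
Map of the 4 Hox clusters, drawn to scale from the group 13 gene (left) in the direction of transcription, with distance in kb on the x axis. Grey boxes are Hox genes (shortest protein-coding transcript of each), triangles are the miRNA genes, and the numbers are mean CPM of 2 libraries: 38405 for Mir10a and 39.5 for Mir196a-1, which stand in the same cluster.

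Levels are sense-strand read counts, also given as CPM, the counts per 1000000 sense counts in all miRNA genes. Those totals were 3581672 in replicate 1 and 3576482 in replicate 2, so 1 count was worth nearly the same in both. All mature arms of the members are 22 or 23 bases long and counts were not divided by length. The 2 arms of a hairpin were not separated, and a bias of library preparation towards some sequences could not be seen in these tables. With 2 libraries, the smallest two-sided p of an exact sign-flip test is 0.5, so values are given as mean ± SD without p-values.

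All 6 genes passed the detection minimum of 10 counts in each library, as did 17.6% of all 1973 genes. Together they held 18.7% of the sense counts in replicate 1 and 17.0% in replicate 2, a mean of 17.9% ± 1.21 (SD, n = 2). Of that sum of uniquely placed reads, 60.3% ± 10.1 came from the Mir10 genes, 37.3% ± 10.6 from the Mir196 genes and the rest from Mir615. The lowest member by these reads, Mir196a-1, was 1766-fold below the highest.

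Mir10b, the Hoxd member of the miR-10 family, had 299542 counts in replicate 1 and 200407 in replicate 2. These are 83632 and 56035 CPM, a mean of 69833 ± 19514 CPM (SD, n = 2). Mir10a, the Hoxb member, had 152163 and 122769 counts, or 42484 and 34327 CPM, with a mean of 38405 ± 5768 CPM. Both libraries placed Mir10b above Mir10a, and the CPM ranges of the genes did not overlap. Mir10b exceeded Mir10a 1.97-fold in replicate 1 and 1.63-fold in replicate 2. The mean log2 ratio was 0.84 ± 0.19 (SD, n = 2), so the difference was larger than its spread.

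Mir196b, the Hoxa member of the miR-196 family, had 193189 counts in replicate 1 and 264545 in replicate 2. These are 53938 and 73968 CPM, a mean of 63953 ± 14163 CPM. It was the most abundant Mir196 gene in both libraries. Mir196a-2 of the Hoxc cluster had 6298 and 7765 counts, or 1758 and 2171 CPM (95% exact binomial intervals 1715 to 1802 and 2123 to 2220), with a mean of 1965 ± 292 CPM. Mir196a-1 of the Hoxb cluster had 134 and 149 counts, or 37.4 CPM (31.3 to 44.3) and 41.7 CPM (35.2 to 48.9), with a mean of 39.5 ± 3.004 CPM. Intervals cover counting error only and take each read as independent. PCR copies are not independent molecules, so the intervals may be too narrow.

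Among uniquely placed reads the split within the miR-196 family was steep and alike in both pools. Mir196b exceeded Mir196a-1 and Mir196a-2 together 30.0-fold in replicate 1 and 33.4-fold in replicate 2, a mean log2 ratio of 4.99 ± 0.11. Mir196a-2 exceeded Mir196a-1 47.0-fold and 52.1-fold, a mean log2 ratio of 5.62 ± 0.11. The same loss of shared reads applies to both ratios. The surplus of Mir196b over the Mir196a genes, 186757 reads in replicate 1 and 256631 in replicate 2, equals 8.48% and 14.0% of the reads placed at several loci. How many of those reads carried miR-196a-5p is not recorded in the tables.

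Mir615, the intronic gene of Hoxc5, had 19060 counts in replicate 1 and 12747 in replicate 2. These are 5322 CPM (5246 to 5397) and 3564 CPM (3503 to 3626), a mean of 4443 ± 1243 CPM. It lay above Mir196a-2, its neighbour in the Hoxc cluster, in both libraries, 3.03-fold in replicate 1 and 1.64-fold in replicate 2. The mean log2 ratio was 1.16 ± 0.62.

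**Figure D2:**
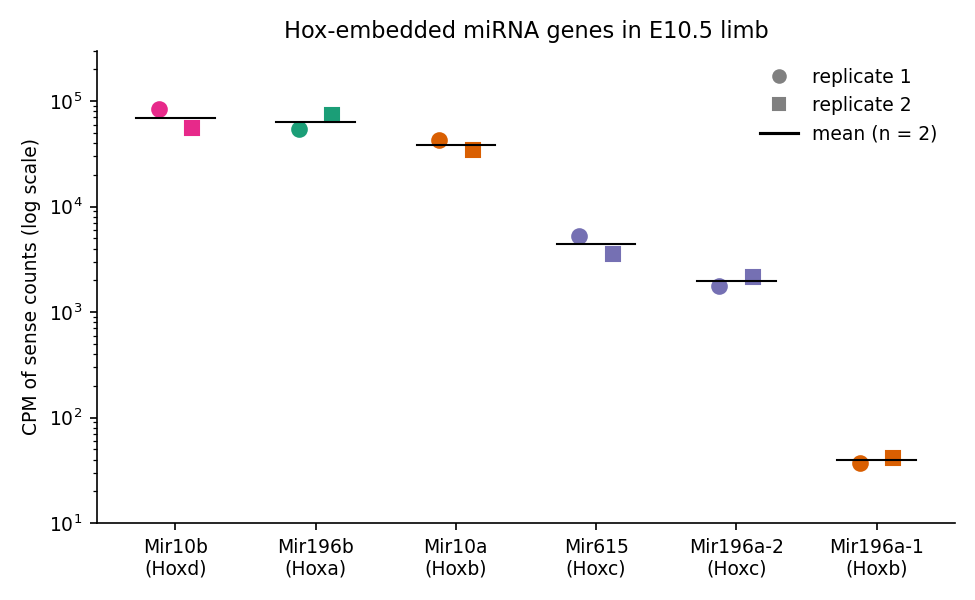
Sense-strand CPM of the 6 genes on a log scale, with circles for replicate 1, squares for replicate 2, a line for the mean (n = 2) and colours for the Hox cluster. Mir10b and Mir196b overlap, at 56035 to 83632 and 53938 to 73968 CPM, while Mir196a-1 stays at 37.4 and 41.7 CPM.

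Ordered by mean CPM the genes ran Mir10b, Mir196b, Mir10a, Mir615, Mir196a-2 and Mir196a-1. The first neighbours in that order were not separated. Mir10b was above Mir196b in replicate 1 and below it in replicate 2, with a log2 ratio of Mir10b to Mir196b of 0.63 and -0.40. The next neighbours, Mir196b and Mir10a, kept their order in both libraries, with log2 ratios of 0.34 and 1.11. The 4 pairs of neighbours from Mir196b downwards had CPM ranges that did not overlap. Among all 1973 genes Mir10b ranked 3, Mir196b 4 and Mir10a 6 by mean CPM, while Mir615 ranked 40, Mir196a-2 63 and Mir196a-1 231. Mir335, an intronic gene of the imprinted gene Mest, ranked 1 at 176336 ± 14589 CPM. The ranks cover uniquely placed reads, so genes whose sequences occur at several loci may stand too low.

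**Figure D3:**
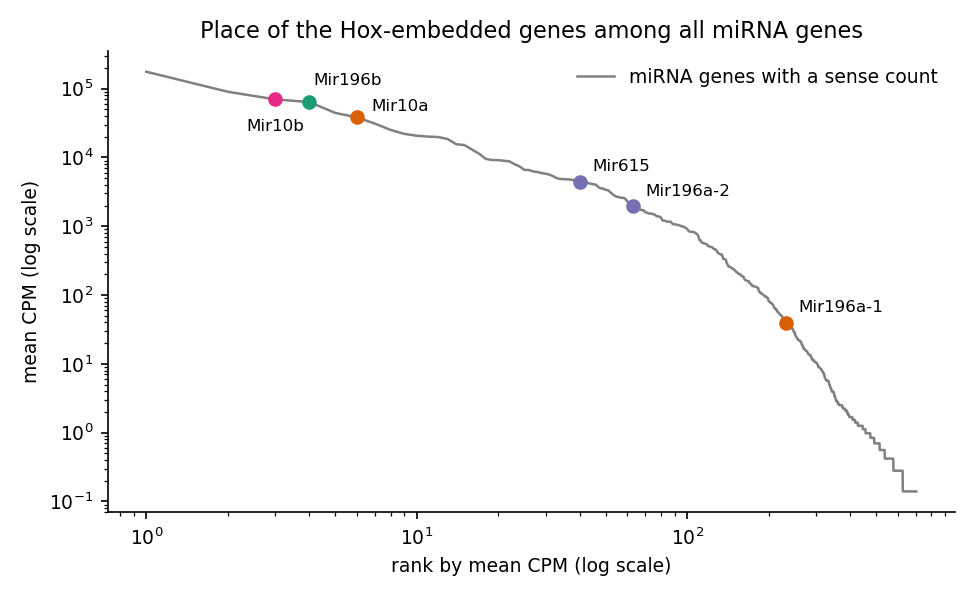
Mean CPM of each miRNA gene with a sense count against its rank, both on log scales, with the 6 Hox-embedded genes as coloured points. Mir10b, Mir196b and Mir10a stand at ranks 3, 4 and 6, and Mir196a-1 at rank 231.

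By Hox cluster, the uniquely placed miRNA reads came from Hoxd and Hoxa first. Mir10b alone gave Hoxd 6.98% ± 1.95 of all sense counts (SD, n = 2) and Mir196b alone gave Hoxa 6.40% ± 1.42. These shares overlapped between the libraries: Hoxd held 8.36% in replicate 1 and 5.60% in replicate 2, and Hoxa held 5.39% and 7.40%. Hoxb held 3.84% ± 0.576, almost all from Mir10a, and Hoxc held 0.641% ± 0.0951. In Hoxb, Mir10a exceeded Mir196a-1 1136-fold in replicate 1 and 824-fold in replicate 2. In Hoxc, the other cluster with a pair of these genes, Mir615 exceeded Mir196a-2 3.03-fold and 1.64-fold. For both pairs, reads shared by the Mir196a loci are missing from the lower count. They are missing from the Hoxb and Hoxc shares as well, so the order of the clusters holds for uniquely placed reads alone.

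By position, the Mir10 genes lie beside group 4 Hox genes and the Mir196 genes between group 9 and the higher groups. Among uniquely placed reads the Mir10 genes together were higher in both libraries, but by unequal amounts. The Mir10 sum was 126116 CPM in replicate 1 and 90361 in replicate 2, against 55734 and 76181 CPM for the Mir196 sum. This is 2.26-fold in replicate 1 and 1.19-fold in replicate 2, a mean log2 ratio of 0.71 ± 0.66. The SD was nearly as large as the mean, so the size of this difference was not settled by these libraries. Reads shared by the Mir196a loci are missing from the Mir196 sum alone. With those reads included, the direction is not settled either.

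Between the pools, the Mir196 genes had ratios opposite in sign to those of the other members. The log2 ratio of replicate 2 to replicate 1 (1 count added to each value) was -0.58 for Mir10b (95% exact interval for counting error -0.59 to -0.57), -0.31 for Mir10a (-0.32 to -0.30) and -0.58 for Mir615 (-0.61 to -0.55). It was 0.46 for Mir196b (0.45 to 0.46), 0.30 for Mir196a-2 (0.26 to 0.35) and 0.15 for Mir196a-1, whose interval of -0.19 to 0.50 includes 0. By CPM, Mir196b and Mir196a-2 were thus higher in replicate 2, and both Mir10 genes and Mir615 were lower. The direction of Mir196a-1 was not settled against counting error. Of the 250 genes whose mean count was 100 or more, 33.2% were higher in replicate 2, and their median log2 ratio was -0.27. None of the 6 members differed more than 2-fold between the libraries, against 10.8% of those 250 genes.

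Set against that median, Mir196b stood 0.73 higher on the log2 scale and Mir196a-2 0.58 higher, while Mir10a stood at -0.04 and Mir10b and Mir615 at -0.31. Mir196b lay above 91.2% of the 250 ratios, Mir10a above 46.4% and Mir10b above 24.4%. Scaling by edgeR's TMM factors raised every ratio by 0.29. Mir10a was then at -0.02, Mir10b and Mir615 at -0.29, and Mir196b at 0.74, and 51.6% of the 250 genes were higher in replicate 2. The ratio of Mir196b to Mir10b does not depend on the scaling, and it was 2.05-fold larger in replicate 2 than in replicate 1.

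**Figure D4:**
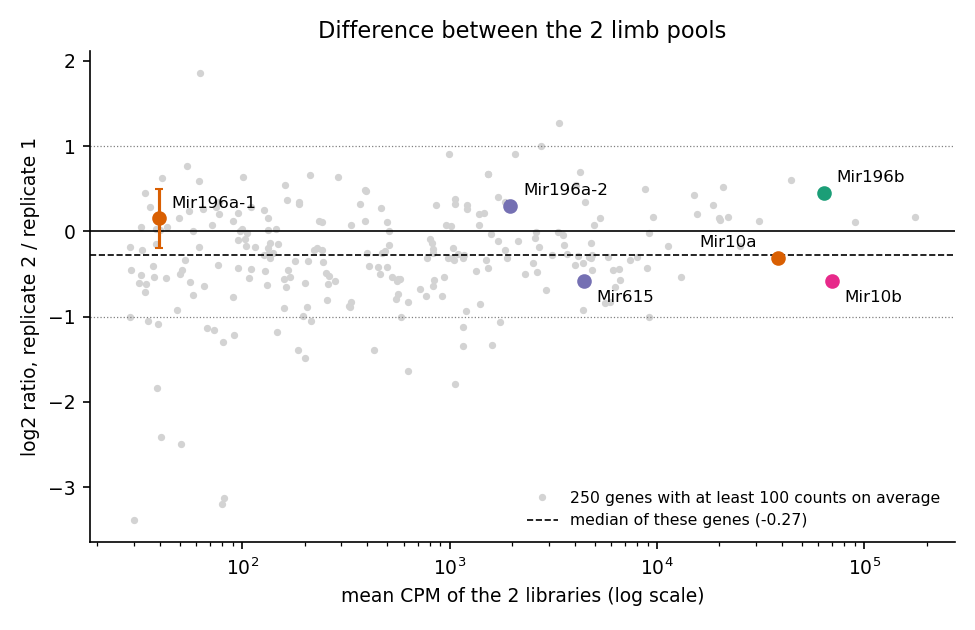
Log2 ratio of replicate 2 to replicate 1 against mean CPM (log scale) for 250 genes in grey and the 6 members in colour, with bars for the 95% counting interval. Mir196b, Mir196a-2 and Mir196a-1 lie above the dashed median of -0.27, and Mir10b and Mir615 lie below it at -0.58.

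Marker genes of limb and other tissues gave the setting of these levels. Mesenchymal genes (Mir199a-1, Mir199a-2, Mir199b and Mir214) summed to 18107 CPM in replicate 1 and 22830 in replicate 2, and 4 of 4 were detected. Most of that sum was Mir214, at 16591 and 20513 CPM. Epithelial genes, led by Mir205 of the ectoderm, summed to 12334 and 10775 CPM with 7 of 7 detected. Their log2 ratio of replicate 2 to replicate 1 was -0.19, but Mir203 was higher in replicate 2 (0.67). The other epithelial genes were lower, from -0.09 for Mir200b to -0.85 for Mir200c. The endothelial gene Mir126a had 26707 and 23683 CPM. The cartilage genes Mir140 and Mir455 summed to 2843 and 5461 CPM, a log2 ratio of replicate 2 to replicate 1 of 0.94; Mir140 alone was higher in replicate 2 (1.27) and Mir455 was lower (-0.32). The erythroid genes summed to 480 and 269 CPM, a log2 ratio of -0.84. The leukocyte genes summed to 731 and 611 CPM with 2 of 3 detected, a log2 ratio of -0.26. The liver gene Mir122 had 24.8 and 5.59 CPM, from 89 and 20 counts, a log2 ratio of -2.10. The muscle list summed to 84.0 and 133 CPM, with 4 of 5 genes detected. Its Mir206 (log2 ratio 1.86) and Mir133b (2.38) were higher in replicate 2, and Mir208a (-0.75), Mir208b (-1.01) and Mir499 (-1.06) were lower. Of the neural list, 7 of 8 genes were in the tables, 2 were detected and the 7 genes summed to 147 and 182 CPM. The 3 Mir124a genes of that list had no sense count, but they share mature sequence with each other and their shared reads are not counted. The same limit holds for any other listed gene whose mature sequence occurs at several loci. A low list sum therefore need not mean a low level, and the sums of different lists are not measured equally. The part of these lists in the difference between the pools was not tested.

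All 6 members were read from the annotated strand alone. Their antisense counts were 0 in both libraries, which leaves room for up to 3 counts, or 0.838 CPM in replicate 1 and 0.839 CPM in replicate 2.

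The nearest genes in level were sought outside the 6 members, by the distance between log2 CPM values over the 2 libraries. Mir17, a gene of the growth-associated Mir17hg transcript, was nearest to both Mir10b and Mir196b, at distances of 0.74 and 0.77. Mir10b and Mir196b were 0.75 from each other, so that Mir10b was nearer to Mir196b than Mir17 was. Its 86997 and 93602 CPM lay above every value of either gene. Mir20a of the same transcript was nearest to Mir10a (0.52), the imprinted gene Mir298 to Mir615 (0.15), Mir16-1 to Mir196a-2 (0.14) and Mir194-2 to Mir196a-1 (0.10). The distances cover only 2 libraries of 1 tissue and describe similar levels, not similar patterns.

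The Hox messages themselves carry matches to the miR-196 seed. In the first 500 bases of the 3′ untranslated region (3′ UTR), taken from the longest annotated 3′ UTR of each gene, ACTACCT, the complement of the miR-196 seed, was found in 7 of 33 Hox genes (21.2%) and in 282 of 14282 protein-coding genes (1.97%). The sense strand of the message was searched, Hox genes are included in the total, and 5 of 38 Hox genes had a shorter 3′ UTR and were left out. The 7 genes were Hoxa4, Hoxa5, Hoxa7, Hoxa9, Hoxb6, Hoxb7 and Hoxc8. The miR-10 match, ACAGGGT, was found in 1 Hox gene, Hoxa3 (3.03%), and in 4.78% of all genes. The miR-615-3p match, GGCTCGG, was found in 0 of 33 Hox genes and in 1.01% of all genes. Hox genes are related in sequence and the search describes letters, not sites in use. Hox messages were not measured in these libraries.

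**Figure D5:**
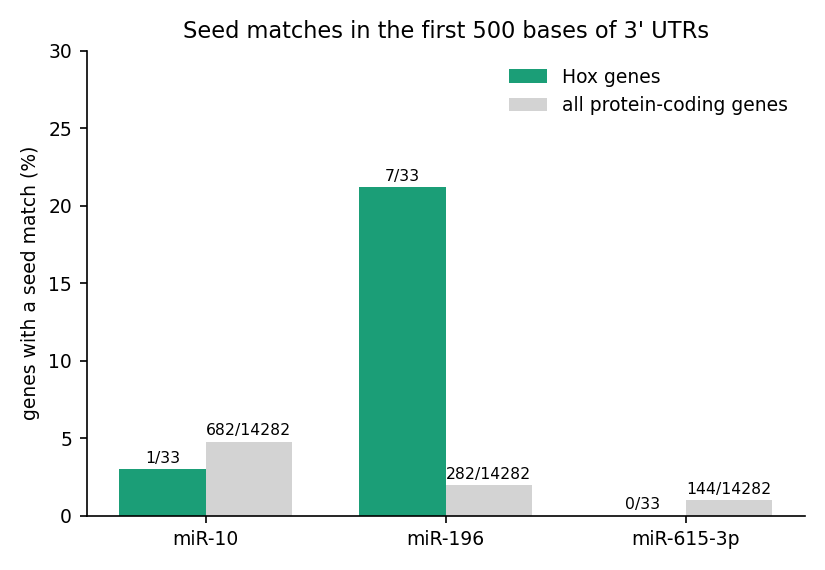
Share of genes (%) whose first 500 bases of 3′ UTR hold the complement of a seed, in green for Hox genes and grey for all protein-coding genes, with counts of genes above the bars. The miR-196 bars stand at 21.2% and 1.97%, and the miR-10 bars at 3.03% and 4.78%.

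Hoxb8, a group 8 Hox gene with no such match to the whole seed, held a longer site. The 22 bases of its 3′ UTR (845 bases in the GENCODE transcript, chromosome 11) that pair best with miR-196a-5p without gaps start at base 418. They are printed as DNA, with capitals for bases that form Watson-Crick pairs.
Hoxb8 site: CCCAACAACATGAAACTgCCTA
For miR-196a-5p, 21 of 22 bases formed Watson-Crick pairs and the other was a G:U pair with base 5 of the miRNA, in the seed. For each of 20899 genes with a 3′ UTR, the ungapped site with the most pairs, G:U pairs counted, was kept. Hoxb8 was the only gene with 21 or more Watson-Crick pairs at the site kept for it. With G:U pairs counted, all 22 bases paired in 2 genes, Hoxb8 among them. For miR-196b-5p the same site had 20 Watson-Crick pairs, since the miRNAs differ at base 12. No other gene had as many at the site kept for it. No Hox 3′ UTR searched had a comparable site for the miR-10 guides: the best paired at 18 of 23 bases with G:U pairs counted, and 2230 of 20881 genes had as many or more for miR-10a-5p. The tables count genes, not arms, so they give no level of either guide; the uniquely placed reads of the Mir196b gene were 31.7-fold above those of the Mir196a genes, with the limit on shared reads given above.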

How the data were processed

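Small RNA of 2 limb libraries was analysed from the deposited raw read counts per gene. Per the deposited readme texts, reads were aligned to mm10 and counted over GENCODE M4, per library. For the aligner, counter and trimming, the sources used here name no tool. The values show 3 count columns per table (both strands, sense, antisense) and 4 rows that name no gene. Those held 64.4% of reads in replicate 1 and 50.5% in replicate 2 in the sense column and stayed out of CPM. Of all reads, 32.3% in replicate 1 and 18.6% in replicate 2 were unmapped. Reads placed at several loci were 21.9% and 25.4%, and mapped reads in no counted gene were 10.3% and 6.46%. The part of these library differences in the ratios between the pools was not tested. Reads totalled 10064833 and 7218612.

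Sense counts were divided by their sum over all gene rows. Symbols came from GENCODE M21: 1894 identifiers matched and 79 did not. Log2 values carry a prior count of 1; intervals are exact (Clopper-Pearson, 95%). Genes named are the members, the nearest other gene in level to each (members left out), the related Mir99a, Mir99b and Mir100, the most abundant gene, marker lists and Hox neighbours. Members and lists were chosen with earlier results of these data known. In the 3′ UTR searches and the map, 1 gene is not reported here. Seeds and Hoxb8 were searched after the counts were seen. The ratios and intervals were tested on simulated counts with known folds and Poisson sampling error alone. That setting held no PCR copies, no shared reads and no spread between pools, so it is no test of their effect. Alternatives were TMM (edgeR 4.0.16), DESeq2 1.42.0 size factors, other denominators, both-strand counts, other prior counts and leaving out a library. Tools were R 4.3.3, Python 3.11.15, numpy 2.4.6, scipy 1.17.1 and matplotlib 3.10.9.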

Additional observations from a re-analysis of the deposited data

How the results depend on the processing

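Of 161 alternative values for 22 results, 122 moved by less than the spread between the libraries (for ratios between libraries, less than the counting interval, and for the count of genes, less than 1.5 times), and none of the ratios changed sign. The log2 ratios between genes moved by less than their SD with prior counts of 0 and 5 and with Mir196a-2 alone in place of both Mir196a genes. Both-strand counts could not move these ratios, since the members had no antisense counts. Without either replicate, all levels, shares and ratios between genes moved by less than their SD, which 2 libraries give by construction. The values fixed in these ways are among the 122. The levels and shares that moved did so with a change of divisor. Over all mapped reads, Mir10b had 39028, Mir196b 36688, Mir10a 21610, Mir615 2483, Mir196a-2 1123 and Mir196a-1 22.5 CPM. The 6 genes then held 10.1%, with 3.67% in Hoxa, 2.16% in Hoxb, 0.361% in Hoxc and 3.90% in Hoxd. Without Mir335 in the divisor, Mir10a had 46573, Mir196a-2 2389 and Mir196a-1 48.0 CPM, and the shares were 21.7% for the 6 genes, 4.66% for Hoxb and 0.777% for Hoxc.

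The log2 ratios of replicate 2 to replicate 1 shifted together. With TMM they were -0.29 for Mir10b, 0.74 for Mir196b, -0.018 for Mir10a, -0.29 for Mir615 and 0.59 for Mir196a-2, and with DESeq2 size factors -0.30, 0.73, -0.032, -0.30 and 0.58 for the same genes. Over all mapped reads they were -0.36, 0.67, -0.095, -0.37 and 0.52. Without Mir335 they were -0.54 for Mir10b, 0.49 for Mir196b, -0.27 for Mir10a and -0.54 for Mir615, and with both-strand counts -0.57 for Mir10b and 0.46 for Mir196b. Genes over 2-fold apart numbered 27 of 250, and 54 when those with at least 10 counts on average were taken in. The 54 come from a larger set that adds genes of lower count, so these numbers do not share a total. The depth limits Mir196a-1 most, at 134 and 149 counts.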

Other observations

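The miR-10 family has relatives outside the Hox clusters, Mir99a, Mir99b and Mir100, whose mature 5′ arms resemble miR-10a-5p from which 1 base at the 5′ end is left off. They are shown from RefSeq (GRCm38.p6), 5′ to 3′, with the seed in capitals.
miR-10a-5p, from Mir10a: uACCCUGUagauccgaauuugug
miR-100-5p, from Mir100: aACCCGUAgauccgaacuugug
miR-99a-5p, from Mir99a: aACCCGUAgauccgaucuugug
miR-99b-5p, from Mir99b: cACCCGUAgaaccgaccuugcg
Aligned without gaps at that offset, miR-100-5p matched miR-10a-5p at 19 of 22 bases, miR-99a-5p at 18 and miR-99b-5p at 15, but the 3 relatives share a seed, ACCCGUA, that differs from that of miR-10. Mir99b had 22015 ± 1860, Mir99a 20709 ± 5259 and Mir100 8787 ± 2099 CPM (SD, n = 2), all below both Mir10 genes in both libraries. The log2 ratio of replicate 2 to replicate 1 was 0.52 for Mir99a, 0.49 for Mir100 and 0.17 for Mir99b, while it was -0.58 for Mir10b and -0.31 for Mir10a. TMM scaling raised all these ratios alike by 0.29, which put Mir10a at -0.02 and left the differences between the genes unchanged. No test of the difference between these groups of genes was made.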
